A study of Homo sapiens with 4 samples.

Results

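Amino acid transporter genes of the SLC1, SLC3, SLC6, SLC7, SLC36, SLC38 and SLC43 families were read on 4 Affymetrix PrimeView arrays of Hs578T, an established line of human breast cancer cells with mesenchymal features. The members were all genes whose symbol is one of these family names followed by A and a number, without antisense genes or pseudogenes, and each was read by its probe set with the highest mean over the arrays. This gave 59 members of 18132 genes measured. Per the labels, 2 arrays came from cells made stably deficient in ELK3, an ETS family transcription factor, with shRNA lentivirus (ELK3 knockdown, replicates 1 and 5), and 2 from sh control cells (ELK3 sh control, replicates 1 and 2). All 4 came from cells grown in serum-containing DMEM with insulin, and the labels do not say what the control shRNA was, whether the lines were clones, or whether replicates were separate cultures. The spread behind each p-value is thus only that between these arrays, and it may be technical.

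Amino acids cross membranes on carriers. Some carriers couple uptake to the sodium or proton gradient, as many members of the SLC1, SLC38 and SLC36 families do. Others exchange an amino acid inside the cell for one outside. The SLC7 light chains do so after pairing with an SLC3 heavy chain at the cell surface. The xCT light chain SLC7A11 brings in cystine for glutathione synthesis in exchange for glutamate, while SLC38A9 sits on lysosomes and reports arginine to the growth kinase complex mTORC1. Several SLC6 members carry neurotransmitters, monoamines or creatine, and they stand here because their symbols fit the family name.

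The knockdown and control arrays differed widely. ELK3 itself read 8.09 and 7.92 with the knockdown, against 10.05 and 10.07 in the controls, on the log2 scale on which every signal is given. Arrays correlated across probe sets at 0.996 and 0.998 within a group and at 0.902 to 0.904 between groups. All 10 mesenchymal markers chosen to check the line were lower in the knockdown arrays. In the control arrays their means ran from 10.11 to 14.29, and in the knockdown arrays THY1 (5.01), AXL (5.62) and COL1A1 (6.52) lay below the median of all values, 6.78. Of 8 epithelial markers 4 were higher, among them KRT8 (mean 7.03 in the controls and 12.69 with the knockdown) and KRT19 (4.73 and 10.68). CDH1 and EPCAM were at 3.76 to 4.41 in every group. Of 5 leukocyte markers 1, NCAM1, was higher, and PTPRC and CD14 lay between 3.62 and 4.50 in both groups. Of 4 endothelial markers KDR and PECAM1 were lower and 0 higher. In RNA from a culture, fewer cells of a type and less RNA per cell cannot be told apart, and the part of these shifts in the results on transporters was not tested.

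Of the 59 transporters, 12 fell and 9 rose in the knockdown arrays at a limma adjusted p under 0.05, and 38 did not pass. Over all genes the same test called 50.8%, with 29.5% higher and 21.3% lower. The transporters were thus called in 35.6% of cases, 15.3% of them higher and 20.3% lower, and their share of rises lay below that of all genes. Of the members, 6 fell and 5 rose by at least 2-fold, where 17.7% of all genes were called at that size, 7.51% lower and 10.2% higher. The largest fall was that of SLC1A1, the largest rise that of SLC6A15. The median difference of the members, knockdown minus control, was -0.10 on the log2 scale, against -0.01 over all genes. Without control replicate 2 the number that rose was 5 and the number that fell 9. In 24 members the mean of neither group reached the median of all values, and 0 of these were called (limma, adjusted p under 0.05), although 3 had an unadjusted p under 0.05. Of all genes that dim, 19.3% were called, and of the others, called bright here, 70.6%. Of the 35 bright members 60% were called, 25.7% higher and 34.3% lower, against 42.8% and 27.8% of all bright genes. An array of this kind gives no call of presence, so whether the dim members were expressed was not tested.

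**Figure D1:**
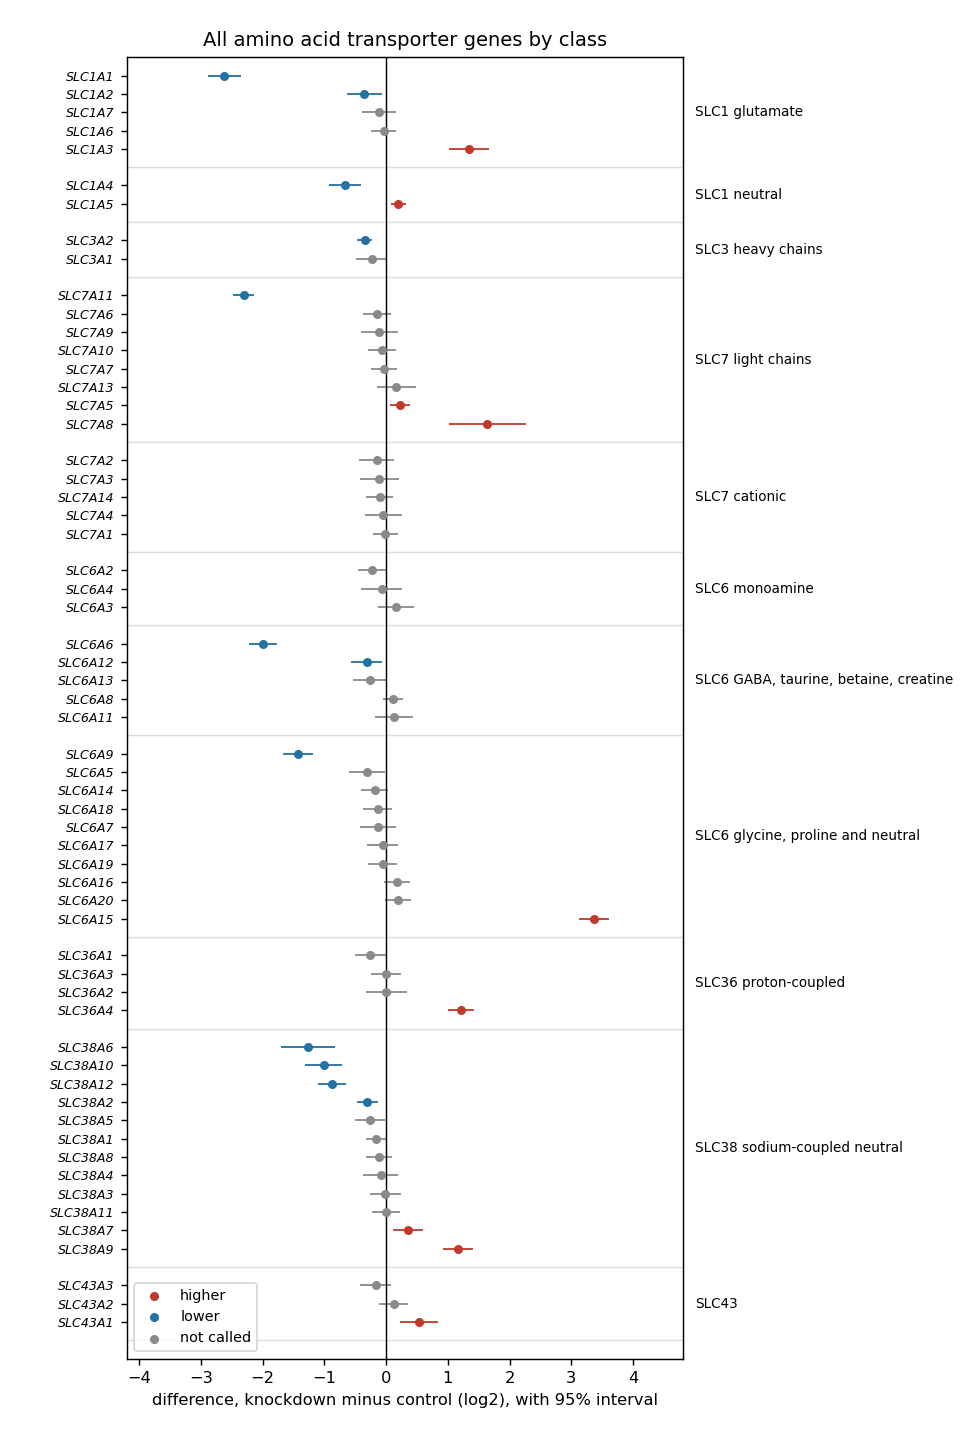
Difference of each of the 59 transporters between knockdown and control arrays (horizontal axis, log2, with the 95% interval of the limma fit), ordered by class. Red points rose, blue points fell and grey points did not pass the adjusted threshold; the 38 grey points lie between -0.31 and 0.19.

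The cystine and glutamate carriers carried the largest falls. SLC7A11, the light chain of the cystine-glutamate exchanger, read 9.01 and 8.99 with the knockdown and 11.27 and 11.35 in the controls. The knockdown arrays were almost equal to each other and far below both controls. The fall was 4.95-fold (log2 difference of the group means -2.31, SE 0.07, limma adjusted p = 5.61e-07). Its other probe sets fell by 2.69 and 1.01. SLC1A1, a sodium-coupled carrier of glutamate, aspartate and cysteine, read 7.59 and 7.88 against 10.40 and 10.31 in the controls. That is a 6.14-fold fall (-2.62, SE 0.11, adjusted p = 2.47e-06), and its second probe set fell by 2.60. The groups did not overlap for either gene, as for 75.3% of all genes.

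The glutamate carriers of the SLC1 family did not move together. SLC1A3, known in brain as the glutamate carrier of astrocytes, rose from 5.66 and 5.69 in the controls to 6.86 and 7.18 in the knockdown arrays, or 2.54-fold (1.35, SE 0.14, adjusted p = 1.44e-04). Of its 5 probe sets 4 were called higher, with differences between 0.72 and 2.83, and the remaining set stood at -0.17. SLC1A2, the other main glutamate carrier of astrocytes, was 1.27-fold lower (-0.35, adjusted p = 0.0485). Its call was lost without knockdown replicate 1 (adjusted p = 0.157), control replicate 1 (0.104) or control replicate 2 (0.214), and with the mean of its probe sets (-0.18). SLC1A6 and SLC1A7, glutamate carriers of cerebellum and retina, stood at -0.04 and -0.12 and did not pass, and both were dim, with neither group reaching the median signal. A second probe set of SLC1A7, of nearly equal signal, was called lower (-0.67, adjusted p = 0.00274).

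The neutral amino acid exchangers of the same family went opposite ways. SLC1A4, an exchanger of alanine, serine and cysteine, read 8.15 and 8.40 in the knockdown arrays against 8.93 and 8.96 in the controls, a 1.59-fold fall (-0.67, SE 0.11, adjusted p = 0.00166). All 6 of its probe sets were called lower. SLC1A5, the glutamine exchanger of many tumour cells, read 11.97 and 11.90 against 11.73 and 11.73, a 1.15-fold rise (0.20, SE 0.05, adjusted p = 0.0175). This small rise was lost without control replicate 1 (adjusted p = 0.121), without control replicate 2 (0.126) or without an intensity trend in the fit (0.0862).

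Promoter windows in RefSeq's GRCh38.p14 table, each running from 250 bases before to 50 after an annotated start, were found for 45 of the 59 members, 67 windows in all. SLC7A11, SLC6A6 and SLC6A15 were among the members with no window, so no motif could be looked for in them. The windows were searched on both strands for TGATGNAA, the core of the element through which ATF4 acts in amino acid shortage. A match was found in 6 member windows (8.96%), against 3.62% of all 34943 windows of that length. The 6 genes were SLC1A3 and SLC1A5, which rose, SLC1A4 and SLC3A2, which fell, and SLC38A1 and SLC7A1, which did not pass. A match is only a description of letters. The sequences before the start of the SLC1 genes are shown because these relatives share the match and differ in direction, with the match in capitals. They are chr5:36596338-36596587 on the plus strand for SLC1A3, 1 of its 3 windows, with the match beginning at position -220, where -1 is the last base before the start. The sequence of SLC1A4 is chr2:64989149-64989399 on the plus strand, 1 of 2 windows, printed 1 base past the start because its match, read on the other strand, begins at -7. That of SLC1A5 is chr19:46784815-46785064 on the minus strand, 1 of 3 windows, with the match at -97.
SLC1A3: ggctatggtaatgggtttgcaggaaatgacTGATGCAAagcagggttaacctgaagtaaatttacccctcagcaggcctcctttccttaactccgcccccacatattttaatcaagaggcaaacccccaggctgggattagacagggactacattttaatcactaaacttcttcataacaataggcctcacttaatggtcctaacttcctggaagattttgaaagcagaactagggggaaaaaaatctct
SLC1A4: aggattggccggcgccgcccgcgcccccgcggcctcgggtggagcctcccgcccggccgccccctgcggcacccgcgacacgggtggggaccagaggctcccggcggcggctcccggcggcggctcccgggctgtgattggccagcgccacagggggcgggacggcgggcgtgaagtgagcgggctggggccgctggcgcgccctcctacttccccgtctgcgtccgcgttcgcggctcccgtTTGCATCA
SLC1A5: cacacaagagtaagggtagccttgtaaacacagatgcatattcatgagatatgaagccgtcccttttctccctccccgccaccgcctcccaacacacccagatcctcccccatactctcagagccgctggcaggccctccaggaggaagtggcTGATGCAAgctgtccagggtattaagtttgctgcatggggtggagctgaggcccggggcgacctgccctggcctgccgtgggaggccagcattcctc

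The heavy chain SLC3A2, known as CD98 and the surface partner of several light chains, fell slightly. It read 11.70 and 11.73 in the knockdown arrays and 12.06 and 12.07 in the controls, a 1.27-fold fall (-0.35, SE 0.05, adjusted p = 8.64e-04). All 7 of its probe sets were called lower. The other heavy chain, SLC3A1, the partner of SLC7A9 in kidney and gut, stood at -0.23 and did not pass. Among the 8 light chains measured, SLC7A11 fell, SLC7A5 and SLC7A8 rose and 5 did not pass, so the light chains did not follow a common direction.

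SLC7A8, a light chain for neutral amino acids, read 8.57 and 8.02 with the knockdown (replicates 1 and 5) against 7.01 and 6.31 for the controls (replicates 1 and 2). The groups were apart, but each pair of replicates was more than 0.5 apart as well, which among the members held for SLC7A8 in both groups and for SLC38A6 in the knockdown group. The mean of the controls, 6.66, lay below the median of all values, which limits the fold. The rise was 3.12-fold (1.64, SE 0.26, adjusted p = 0.00143). The size rests on the probe set. The other sets stood at 0.33, 0.30 and -0.01, and with the mean of all sets the difference was 0.57 (adjusted p = 0.00194). SLC7A5, which brings in leucine and other large neutral amino acids, read 11.59 and 11.44 against 11.28 and 11.29, a 1.17-fold rise (0.23, SE 0.07, adjusted p = 0.0262). Its second probe set stood at -0.25, the mean of both at -0.0081, and the call was lost without control replicate 1 (0.130), without control replicate 2 (0.119) or without an intensity trend (0.0797). SLC7A6, a light chain that exchanges cationic for neutral amino acids, did not pass (-0.15, 95% interval -0.38 to 0.08), although its other probe sets were called lower, at -0.33 and -0.51.

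The cationic amino acid carriers numbered 5, of which 0 passed the limma threshold and 0 had an unadjusted p under 0.05. SLC7A1, the general arginine and lysine carrier, read 10.38 and 10.18 in the knockdown arrays and 10.27 and 10.31 in the controls. The difference was -0.01 with a 95% interval from -0.21 to 0.19, and another probe set was called higher (0.44, adjusted p = 0.00359), so the sets did not give 1 answer. Its sign turned with the mean of its probe sets (0.12), without knockdown replicate 5 (0.090) and without control replicate 2 (0.011). SLC7A2, an inducible arginine carrier, stood at -0.16 by its brightest probe set, while its other 3 sets were called lower, at -0.32, -0.51 and -0.71. SLC7A3, SLC7A4 and SLC7A14 were dim in each group, and a second set of SLC7A14 was called lower, at -0.27.

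**Figure D2:**
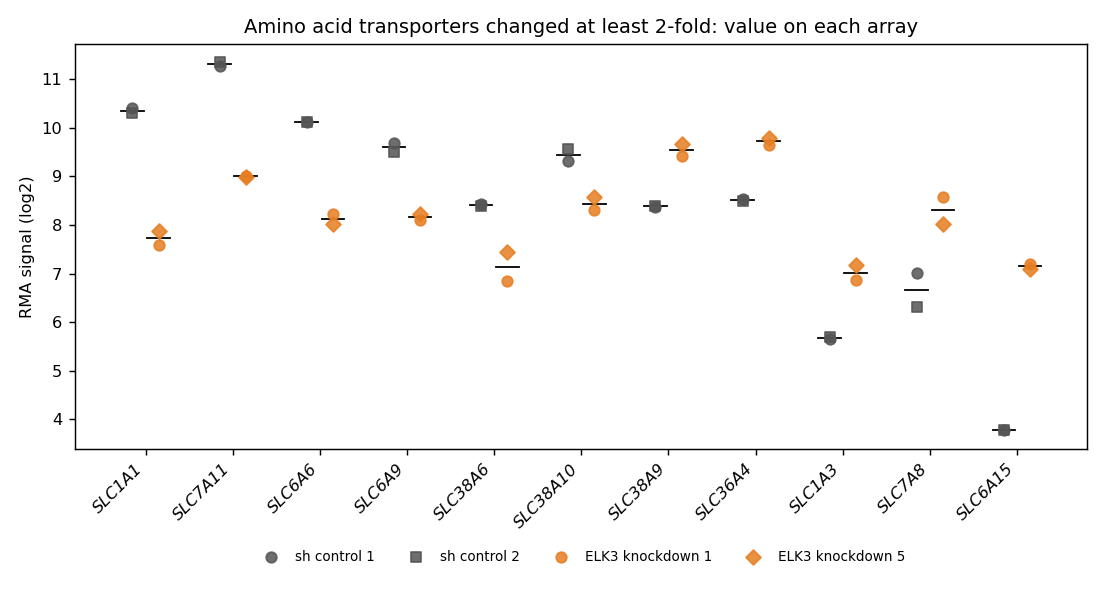
Signal on each array (vertical axis, RMA log2) of the 11 transporters changed at least 2-fold, ordered from the largest fall to the largest rise. Grey points are the control arrays, orange points the knockdown arrays and lines the group means. SLC7A8 has the widest gap between control arrays and SLC38A6 that between knockdown arrays. The groups are apart for every gene shown, as for 75.3% of all genes. The choice of genes by size and adjusted p favours this.

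The SLC6 family held the largest rise of any transporter. SLC6A15, a carrier of branched-chain amino acids and proline found mainly in neurons, read 7.19 and 7.10 in the knockdown arrays and 3.78 and 3.78 in the controls. The control values lay near the dim end of the arrays, whose lowest value was 2.97, so the fold is set partly by that floor. The difference was 3.37 (SE 0.10, adjusted p = 5.73e-07), or 10.3-fold, and the second probe set rose by 2.84. The other 9 carriers of glycine, proline and neutral amino acids held 1 call, a fall. This was SLC6A9, the glycine carrier GLYT1, at 8.10 and 8.23 against 9.69 and 9.50, or 2.70-fold lower (-1.43, SE 0.10, adjusted p = 2.72e-05). Of its 7 probe sets 6 were called lower, from -0.61 to -1.52, and the remaining set stood at -0.30. SLC6A14, which carries neutral and cationic amino acids, stood at -0.19 and was dim in both groups.

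Taurine uptake was represented by SLC6A6, which read 8.22 and 8.02 in the knockdown arrays and 10.12 and 10.12 in the controls. The fall was 4.0-fold (-2.0, SE 0.09, adjusted p = 3.80e-06). Of its other 4 probe sets 3 were called lower, at -1.10, -0.48 and -0.36, and the last stood at 0.15. The mean of all 5 sets gave -0.76. SLC6A12, a betaine and GABA carrier, was 1.24-fold lower (-0.31, adjusted p = 0.0450). That call was lost without any of the 4 arrays, with adjusted p between 0.0711 and 0.230. SLC6A8, the creatine carrier, was at 10.61 and 10.73 against 10.54 and 10.58 and did not pass (0.11, 95% interval -0.06 to 0.27), while another of its probe sets was called lower, at -0.31. The monoamine carriers SLC6A2, SLC6A3 and SLC6A4 were all dim and did not pass, with differences of -0.23, 0.16 and -0.07.

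SLC38A9 and SLC36A4 rose by more than 2-fold. In the SLC36 family 1 of 4 members was called higher, against 29.5% of all genes. SLC38A9, the lysosomal arginine sensor of mTORC1, read 9.42 and 9.66 in the knockdown arrays and 8.38 and 8.38 in the controls. It rose 2.23-fold (1.16, SE 0.10, adjusted p = 7.24e-05), and its other probe sets rose by 1.03 and 1.41. SLC36A4, a member of the SLC36 family that carries proline and tryptophan, read 9.66 and 9.78 against 8.53 and 8.49. It rose 2.32-fold (1.21, SE 0.09, adjusted p = 2.49e-05), and its second probe set by 1.24. SLC36A1, the lysosomal proton-coupled carrier, stood at -0.25 and did not pass (adjusted p = 0.0927). Its other probe sets split, with sets called lower at -0.45 and -0.34 and sets not called at 0.35, 0.06 and 0.05. SLC36A2 and SLC36A3, dim in each group, did not pass. SLC38A7, a lysosomal glutamine and asparagine carrier, was 1.28-fold higher (0.36, adjusted p = 0.0222). Its 3 other probe sets stood between -0.13 and -0.18, their mean with the brightest at -0.033, and the call was lost without control replicate 1 (0.0715) or control replicate 2 (0.183).

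SLC38A2, the carrier that cells induce when amino acids run short, read 11.38 and 11.56 in the knockdown arrays and 11.76 and 11.80 in the controls. It was 1.24-fold lower (-0.31, SE 0.07, adjusted p = 0.00943), and 0.0625 without control replicate 2. Its other probe sets fell further, with differences of -0.91 and -0.90, and the mean of all 3 was -0.70, so the size rests on the probe set. SLC38A1, a glutamine carrier of growing cells, read 11.04 and 10.89 against 11.15 and 11.10 and did not pass (-0.16, adjusted p = 0.112). Another of its probe sets was called lower, at -0.36. It passed without knockdown replicate 1 (-0.24, adjusted p = 0.00226) and with the mean of its probe sets (-0.25, adjusted p = 0.0465).

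The largest falls of the SLC38 family were in less studied members. SLC38A6 read 6.85 (replicate 1) and 7.44 (replicate 5) with the knockdown against 8.44 and 8.38 in the controls, a 2.41-fold fall by its only probe set (-1.27, SE 0.19, adjusted p = 9.69e-04). SLC38A12 read 8.41 and 8.25 against 9.19 and 9.22, a 1.84-fold fall (-0.88, SE 0.09, adjusted p = 1.79e-04). Its other sets stood at -1.41 and -0.08. SLC38A10 was the 1 member whose probe sets were called in opposite directions. The brighter read 8.31 and 8.57 against 9.33 and 9.57 (-1.01, SE 0.13, adjusted p = 4.14e-04), and the other rose by 0.61. Averaged over both sets the difference was -0.20 and did not pass (adjusted p = 0.158), so no direction can be given for the gene as a whole. The remaining SLC38 genes that did not pass lay between -0.26 and -0.0023.

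The windows were also searched for CCGGAAG, a site of the kind that ETS factors such as ELK3 bind. It was found in 5 member windows (7.46%), against 10.2% of all windows. The genes were SLC38A6 and SLC38A10, with the values given above, and SLC36A1, SLC6A14 and SLC7A6, which did not pass. The windows of SLC38A6 and SLC38A10, the only ones each gene has in the table, are shown up to the start because these genes were called, with the match in capitals. They are chr14:60980995-60981244 on the plus strand, with the match at -73, and chr17:81295308-81295557 on the minus strand, where the match begins at -28 and is read on the other strand. Binding was not measured.
SLC38A6: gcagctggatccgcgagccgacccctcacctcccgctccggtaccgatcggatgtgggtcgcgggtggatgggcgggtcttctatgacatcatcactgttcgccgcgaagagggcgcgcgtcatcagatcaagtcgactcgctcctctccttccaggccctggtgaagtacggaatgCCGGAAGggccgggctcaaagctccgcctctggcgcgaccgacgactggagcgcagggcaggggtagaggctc
SLC38A10: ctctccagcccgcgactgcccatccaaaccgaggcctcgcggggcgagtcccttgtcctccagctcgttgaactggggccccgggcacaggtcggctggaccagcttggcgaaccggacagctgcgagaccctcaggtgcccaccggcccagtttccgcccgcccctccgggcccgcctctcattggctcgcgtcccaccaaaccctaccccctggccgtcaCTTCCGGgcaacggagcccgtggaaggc

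In the SLC43 family SLC43A1, a facilitator of branched-chain amino acid transport, read 7.58 and 7.87 in the knockdown arrays and 7.22 and 7.16 in the controls. It rose 1.45-fold (0.53, SE 0.13, adjusted p = 0.0103), and without control replicate 2 the adjusted p was 0.0504. SLC43A2, a related facilitator, and SLC43A3, a purine carrier, did not pass, at 0.12 and -0.17.

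**Figure D3:**
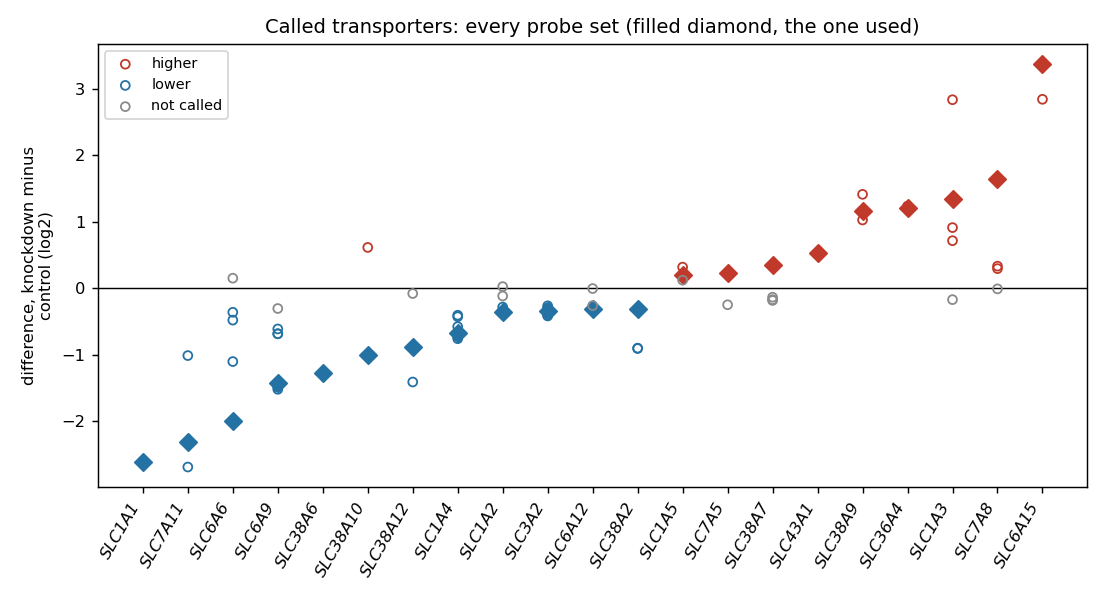
Difference of every probe set (vertical axis, knockdown minus control, log2) of the 21 called transporters, with the probe set used as a filled diamond and the others as open circles, coloured by their call in a fit over all probe sets. Circles of SLC38A10, SLC38A7, SLC7A5, SLC6A6, SLC1A3, SLC1A2 and SLC7A8 lie across the zero line from the diamond. Those of SLC3A2 and SLC1A4 sit close to the diamond.

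Probe sets of the same gene share the RNA and the arrays, and whether they share probes was not checked. Of the 21 called members 19 had more than 1 probe set, and for 15 of these another set was called in the same direction in a fit over all probe sets. For 8 of the 19 every set was called that way, and for 1, SLC38A10, a set was called the other way. Of the 38 members not called, 12 had another probe set that was. A further 2 probe sets name a member together with another symbol and were left out.

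Genes of amino acid sensing by mTORC1 were called higher in 15 (46.9%) and lower in 6 (18.8%) of 32, against 29.5% and 21.3% of all genes, with a median difference of 0.27. Of the 32, 29 were bright, and of all bright genes 42.8% were called higher and 27.8% lower, so the share of rises lay near that of bright genes. RRAGD, a Rag GTPase that docks mTORC1 on lysosomes, read 9.51 and 9.82 in the knockdown arrays and 5.47 and 5.10 in the controls, a 20.8-fold rise (4.38, SE 0.16, adjusted p = 1.34e-06) from controls below the median of all values. SESN1, a sestrin, rose 8.16-fold (3.03, SE 0.11), the mTOR partner MLST8 3.70-fold (1.89, SE 0.07) and WDR59, a subunit of the GATOR complex, 2.11-fold (1.08, SE 0.08). RPTOR, the raptor subunit that defines mTORC1, was lower (-0.81), as was the folliculin gene FLCN (-0.82). The list holds activators and inhibitors of the pathway, and mTORC1 activity was not measured.

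Genes of the ATF4 amino acid response, which cells switch on when amino acids are scarce, were called lower in 15 (60%) and higher in 5 (20%) of 25, against 21.3% and 29.5% of all genes, with a median difference of -0.55. All 25 were bright, and of all bright genes 70.6% were called, 27.8% lower and 42.8% higher. STC2, a secreted glycoprotein, fell 36.9-fold (-5.20, SE 0.12), from a control mean of 13.01 to 7.61 and 7.99. NUPR1, a stress-induced nuclear protein, fell 7.34-fold (-2.88, SE 0.45), with a difference of -2.05 without knockdown replicate 1 and -3.70 without knockdown replicate 5. DDIT4, an inhibitor of mTORC1, fell 5.73-fold (-2.52, SE 0.33), and its knockdown arrays read 7.15 (replicate 1) and 8.30 (replicate 5). CHAC1, which breaks down glutathione, fell 3.82-fold (-1.93, SE 0.25), with knockdown arrays at 7.05 and 7.91. ATF4 itself was higher (0.57), as were SESN2 (0.43), ATF5 (0.42), ALDH18A1 (0.69) and SHMT2 (0.25). The 5 genes that did not pass were DDIT3, EIF2AK4, ATF3, TRIB3 and CTH. The number that rose was 3 without control replicate 1 and 3 without control replicate 2.

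Genes of glutathione synthesis and turnover, which use the cysteine that SLC7A11 supplies as cystine, numbered 14, of which 4 were higher (28.6%, against 29.5% of all genes) and 5 lower (35.7%, against 21.3%). Most were bright, so the list's share of calls, 64.3%, lay near the 70.6% of all bright genes. The synthesis enzymes split. GCLC, the catalytic subunit of the first step, rose (0.80), GCLM, its modifier, fell (-0.54), and GSS, the second enzyme, rose (0.88), as did the glutathione reductase GSR (0.76). GPX4, which uses glutathione to remove lipid peroxides, rose 2.10-fold (1.07, SE 0.05). ANPEP, a surface peptidase that trims glutathione fragments, fell 22.5-fold (-4.49, SE 0.13). CD44, also 1 of the mesenchymal markers above, and CHAC1 were lower too (-3.10 and -1.93).

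Of 34 genes of amino acid synthesis and breakdown, 13 were higher (38.2%, against 29.5% of all genes) and 11 lower (32.4%, against 21.3%). Together 70.6% of the list was called, the same share as of all bright genes, and 30 of the 34 were bright. ASS1, which makes argininosuccinate from citrulline, read 10.17 and 10.24 in the knockdown arrays and 5.33 and 5.70 in the controls, a 25.9-fold rise (4.70, SE 0.14, adjusted p = 5.19e-07) from controls below the median of all values. GLUL, glutamine synthetase, rose 12.7-fold (3.66, SE 0.06), while the mean over its probe sets rose by 2.53. The tryptophan-degrading enzymes TDO2 and IDO1 fell 11.1-fold (-3.47, SE 0.11) and 8.27-fold (-3.05, SE 0.16). The lists overlap in several genes, such as CHAC1, and were read as counts with no test of a list.

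**Figure D4:**
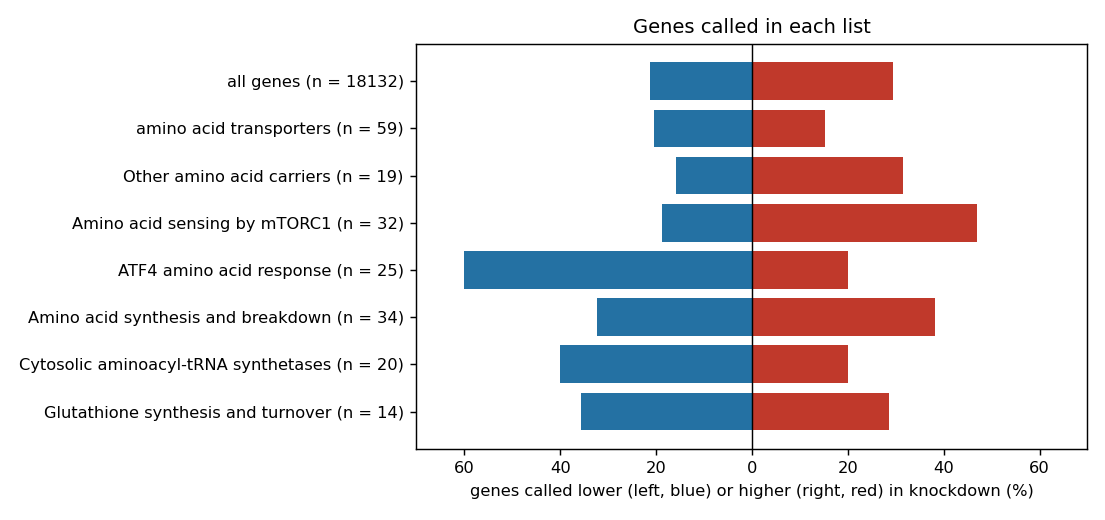
Share of genes called higher (red, to the right) and lower (blue, to the left) in knockdown arrays, in percent, for all 18132 genes, the 59 transporters and 6 lists of genes around amino acid use. The ATF4 list has the longest blue bar and the list of amino acid sensing by mTORC1 the longest red bar.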

How the data were processed

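Per the submitters' processing notes the authors used RMA, whose version and settings are not given in the sources used. The deposited values are RMA log2 signals of 49293 probe sets on 4 one-colour arrays. Of these, 44988 with exactly 1 symbol in the platform annotation were used, and 1832 with several symbols and 2473 unnamed ones were left out. Each of 18132 genes was read by its probe set with the highest mean. Arrays have no read depth, and their number limits the precision.

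Knockdown and control arrays were set against each other in limma 3.58.1 under R 4.3.3 (lmFit, eBayes with an intensity trend, two-sided, Benjamini-Hochberg over all genes, threshold 0.05). The fit had 2 residual degrees of freedom and a prior of 4.83. It was also run on simulated data, with variances drawn from its own prior and far fewer changed genes than were called here. That run therefore cannot vouch for the calls on these arrays. With 2 arrays against 2, an exact permutation test cannot give a p below 0.333. A fold is 2 to the power of the log2 difference, and 95% intervals are those of the fit. Dim means below the median of all values, 6.78, in both group means. Alternatives were moderation without a trend or with robust variances, other probe set rules, quantile or median scaling, other thresholds, and each array left out.

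The rule for named genes took ELK3, members past the threshold at 2-fold or more with every array, 13 fixed members (SLC3A2, SLC7A1, SLC7A5, SLC7A6, SLC7A8, SLC7A11, SLC1A3, SLC1A4, SLC1A5, SLC38A1, SLC38A2, SLC6A9 and SLC43A1), and up to 4 called genes of each list by size. Any other gene named was chosen after its values had been seen. Of 161 list entries 144 were measured. Members and lists were chosen with earlier results of these data known. Promoter sequences are RefSeq's (GRCh38.p14), matched by symbol. Plots were made in matplotlib 3.10.9, Python 3.11.15. Not every gene of these families is reported here.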

Additional observations from a re-analysis of the deposited data

How the results depend on the processing

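No paired analysis was possible because the groups share only replicate number 1 in the labels. The number of transporters that rose (9) was 5 with a fold over 1.5 and unadjusted p under 0.05, 5 at an adjusted p under 0.01, and between 5 and 10 when 1 array was left out, with 5 without control replicate 2; the number that fell (12) stayed between 8 and 14. With 1 array left in a group, that array is assumed to vary like the others. The median difference (-0.10) was -0.089 with cross-hybridising probe sets left out, -0.15 with dim genes left out, -0.081 with quantile normalization, -0.12 with arrays centred on their median, and between -0.093 and -0.075 when 1 array was left out. ELK3 was called lower in each setting, from -1.98 to -2.14. With the mean of all probe sets SLC38A7 turned to -0.033, SLC7A5 to -0.0081 and SLC7A1 to 0.12, and SLC7A1, which ran from -0.11 to 0.090 with 1 array left out, also turned without knockdown replicate 5 (0.090) and without control replicate 2 (0.011). Of the 21 calls, 21 were kept with robust moderation, quantile normalization, median centring or dim genes left out, 20 with cross-hybridising probe sets left out, 19 without an intensity trend, 16 with the mean of probe sets, 15 at an adjusted p under 0.01, 13 under the selection of the series' design text, and 14 to 20 with 1 array left out. Dim signals, with 1 group mean below the median of all values, limit the folds of SLC6A15, SLC1A3, SLC7A8, SLC6A12, RRAGD, ASS1, TDO2, IDO1, ANPEP and SLC16A10.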

Other observations

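Amino acid carriers outside the 7 families were called higher in 6 (31.6%) and lower in 3 (15.8%) of 19, near the 29.5% and 21.3% of all genes. SLC16A10, which lets aromatic amino acids pass, read 8.05 and 8.35 in the knockdown arrays and 5.92 and 5.86 in the controls. It rose 4.94-fold (log2 difference 2.30, SE 0.13, limma adjusted p = 9.16e-06). Averaging its probe sets gave a larger log2 difference, 3.69. SFXN3, a mitochondrial sideroflexin, fell 2.30-fold (-1.20, SE 0.09), and SLC25A29 fell 1.81-fold (-0.85, SE 0.10). The mitochondrial aspartate-glutamate carriers differed, with SLC25A12 lower (-0.65) and SLC25A13 higher (0.62). CTNS, the lysosomal cystine exporter, was higher (0.56), and SLC66A1, a lysosomal exporter of cationic amino acids, was higher too (0.31).

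Cytosolic aminoacyl-tRNA synthetases load amino acids onto tRNA. With their scaffold protein AIMP1, 8 of 20 (40%) were called lower and 4 (20%) higher, against 21.3% and 29.5% of all genes. All 20 were bright, and 60% were called, against 70.6% of all bright genes. Of all bright genes 27.8% were called lower and 42.8% higher. The tryptophan enzyme WARS1 fell 2.46-fold (-1.30, SE 0.07), the glycine enzyme GARS1 2.36-fold (-1.24, SE 0.06) and the cysteine enzyme CARS1 1.84-fold (-0.88, SE 0.07). The asparagine enzyme NARS1 rose 1.59-fold (0.67, SE 0.05). The number that rose was 2 without control replicate 1. SLC25A13, CTNS and SLC66A1 were named after their values were seen.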
